A study of Homo sapiens with 12 samples.

Results

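A set of 35 genes of glycolysis and the response to low oxygen was followed in derivatives of the human colorectal carcinoma line Ls174T. In these, an inducible construct reduces Wnt signalling. The members are the sugar transporters, the enzymes from hexokinase to lactate dehydrogenase with their regulators, the oxygen-sensitive transcription factor subunit HIF1A, prolyl hydroxylases, and genes known as targets of the factor. Each was read from probe sets whose only gene symbol was that of the member, and where a member had several, the brightest by mean log2 signal stood for it. Of the 35 members 34 had such a probe set, 33 were bright enough to be tested among 12386 genes, and 19775 genes in all had a probe set. SLC2A3, the neuronal glucose transporter, lay below the filter, with signals between 0.5 and 9.0 on the 12 arrays. SLC16A3, a lactate exporter, was not analysed here.

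Glycolysis splits glucose into pyruvate and yields ATP without oxygen. Many tumour cells run it even where oxygen is present, and convert much of the pyruvate to lactate. When oxygen is scarce, prolyl hydroxylases no longer mark HIF1A for destruction, and the factor it forms binds short DNA elements with the core ACGTG and raises glucose transporters, many glycolytic enzymes and genes such as VEGFA. In intestinal epithelium and colorectal tumours, Wnt signalling through β-catenin and its partner Tcf4 maintains the proliferating crypt programme. PDK1, which restrains the oxidation of pyruvate in the mitochondria, has been described as a Wnt target gene in colon cancer.

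RNA of the 4 groups, with 3 arrays each, was hybridised to Affymetrix U133 Plus 2.0 arrays. The groups were the line Ls174T-pTER-β-catenin given doxycycline for 72 h to switch on a hairpin RNA (shRNA) that knocks down β-catenin, the same line left without doxycycline, the line Ls174T-L8 given doxycycline for 24 h to induce a dominant-negative Tcf4 transgene, and that line left without doxycycline. All groups carry their construct on the same Ls174T background and were cultured in serum-containing RPMI, and no group in the labels differs in oxygen supply. The labels do not say whether each line is 1 clone or whether replicate arrays stem from separate cultures, so p-values measure the spread between these arrays only, and their number limits the precision. Cells with doxycycline but no construct were not analysed here, so inducer and construct cannot be told apart. Line, construct and time of induction differ together between both systems and cannot be told apart either.

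Signals are intensities in arbitrary units, scaled by the authors so that every array has the same trimmed mean. Median signals per array lay between 12.1 and 15.3. CTNNB1, the gene of β-catenin, had a signal of 156 ± 21.4 in induced and 3784 ± 195 in uninduced shRNA cells (mean ± SD, n = 3), a log2 change of -4.61. When dominant-negative Tcf4 was induced, 2 probe sets of TCF7L2, the gene of Tcf4, rose by 2.92 and 3.53. The brightest TCF7L2 probe set rose by 0.72 there and by 0.74 with the shRNA. As a check of Wnt signalling, AXIN2, LGR5 and ASCL2 were read from their brightest probe sets. Their changes were -1.60, -1.55 and -3.07 with the shRNA and -2.24, -2.23 and -3.81 with dominant-negative Tcf4. LGR5 still had 272 ± 43.0 in induced shRNA cells, beside 787 ± 20.9 in uninduced ones. Of 12 colorectal epithelium markers all were above the filter, and 8 rose and 1 fell with the shRNA, whereas 6 rose with dominant-negative Tcf4. Of all genes tested 16.6% rose and 17.4% fell with the shRNA, and 16.0% rose and 20.0% fell with dominant-negative Tcf4. The summed signal of the 12 markers was 37571.1 to 42448.9 in induced and 19190.5 to 21725.6 in uninduced shRNA cells. It was 37167.2 to 41479.2 in induced and 25601.7 to 28559.6 in uninduced dominant-negative Tcf4 cells. Of 9 fibroblast markers 5 were above the filter, with sums of 366.8 to 437.8 in induced and 222.1 to 280.4 in uninduced shRNA cells, and of 252.0 to 268.0 in induced and 173.4 to 193.2 in uninduced dominant-negative Tcf4 cells. None of the 6 leukocyte markers with a probe set was above it. The ratio of the 3′ to the 5′ control probe set of ACTB, a measure of RNA integrity, was 1.29 to 1.34 in induced and 1.32 to 1.39 in uninduced shRNA cells, and 1.13 to 1.16 in induced and 1.25 to 1.35 in uninduced dominant-negative Tcf4 cells. The part of these markers and ratios in the results below was not tested. In bulk RNA of this kind fewer expressing cells and less RNA per cell cannot be told apart.

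The promoter letters of ANKRD37, BNIP3, ENO2 and P4HA2 are shown first because these are the members that passed the test in the same direction in both inductions. Each sequence is the 250 bases before the gene start in RefSeq on GRCh38.p14, given 5′ to 3′ on the strand of the gene. The regions are chr4:185396591-185396840 on the plus strand for ANKRD37, chr10:131981924-131982173 on the minus strand for BNIP3, chr12:6914330-6914579 on the plus strand for ENO2, and chr5:132227092-132227341 on the minus strand for P4HA2. Capitals mark the letters ACGTG, the core of the element that hypoxia-inducible factors bind, or CACGT, the same letters on the other strand; the run CACGTG holds both, overlapping.
ANKRD37: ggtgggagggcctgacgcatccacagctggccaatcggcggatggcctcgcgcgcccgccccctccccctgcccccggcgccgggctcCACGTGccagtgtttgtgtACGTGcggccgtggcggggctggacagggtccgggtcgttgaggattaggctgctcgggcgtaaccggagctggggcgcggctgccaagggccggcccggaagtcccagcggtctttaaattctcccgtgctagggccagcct
BNIP3: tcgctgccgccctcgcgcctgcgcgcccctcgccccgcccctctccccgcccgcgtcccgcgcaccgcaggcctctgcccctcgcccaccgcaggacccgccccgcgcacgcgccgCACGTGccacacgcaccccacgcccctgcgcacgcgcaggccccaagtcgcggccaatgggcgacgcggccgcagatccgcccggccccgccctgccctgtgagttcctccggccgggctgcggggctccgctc
ENO2: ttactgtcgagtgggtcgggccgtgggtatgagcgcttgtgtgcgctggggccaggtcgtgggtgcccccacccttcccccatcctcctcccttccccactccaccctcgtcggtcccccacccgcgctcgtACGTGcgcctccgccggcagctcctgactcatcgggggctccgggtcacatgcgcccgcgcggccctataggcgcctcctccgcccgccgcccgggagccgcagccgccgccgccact
P4HA2: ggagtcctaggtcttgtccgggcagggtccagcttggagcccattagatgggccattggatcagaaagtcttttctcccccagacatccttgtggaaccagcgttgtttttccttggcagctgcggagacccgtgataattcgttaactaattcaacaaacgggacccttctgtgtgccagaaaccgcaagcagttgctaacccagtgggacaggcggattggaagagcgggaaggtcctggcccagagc
ANKRD37 holds 3 matches, BNIP3 holds 2, ENO2 holds 1 and P4HA2 holds 0. Both genes that rose together in the 2 lines, ANKRD37 and P4HA2, thus stand at opposite ends of this count. Windows of 300 bases (250 before and 50 after a start) were found for 31 members, and only the 250 bases before the start were searched. Of the 31 members 18 held the core there in at least 1 window, against 21.7% of 27305 genes. Over windows it was 21 of 59 (35.6%) for the members and 18.5% of all 35116. Genes with more windows, such as HK1 and PFKM with 7 each, have more room for a match in at least 1. Some members were listed because they are known HIF targets, so the comparison is a description only. CTTTGAT, the letters of the Tcf element, was in 0 member windows on either strand and in 2.26% of all. A match is a description of letters and does not show binding.

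After 72 h of β-catenin shRNA most members had changes that did not pass the test, and more of the called ones were lower than higher. Of 33 members 3 rose (ANKRD37, P4HA2 and HIF1A), 7 fell (PFKL, PFKP, PFKFB3, TPI1, ENO2, VEGFA and BNIP3) and 23 did not pass. Among all genes tested 34.0% were called, 16.6% higher and 17.4% lower, so the share of members called is close to that of genes in general. The members' median log2 change was -0.07, that of all genes 0.02, and the changes ran from -1.02 for VEGFA to 0.59 for ANKRD37. Dominant-negative Tcf4 for 24 h gave a different selection. Here 8 members rose (HK2, ALDOC, SLC2A1, VEGFA, NDRG1, BNIP3L, ANKRD37 and P4HA2), 5 fell (PFKM, ENO1, ENO2, PDK1 and BNIP3) and 20 did not pass, where 36.0% of all genes were called, 16.0% higher and 20.0% lower. The median was -0.05 for the members and -0.05 for all genes, with a range from -0.73 for PFKM to 1.90 for NDRG1. Induced and uninduced values did not overlap for 14 members with the shRNA (5 higher, 9 lower) and for 15 with dominant-negative Tcf4 (8 higher, 7 lower). Over all genes this was the case for 44.6% (22.4% higher, 22.2% lower) and 47.1% (21.1% higher, 26.0% lower). A member was called at a Benjamini-Hochberg adjusted p under 0.05 in limma, and changes are induced minus uninduced on the log2 scale ± standard error (SE).

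**Figure D1:**
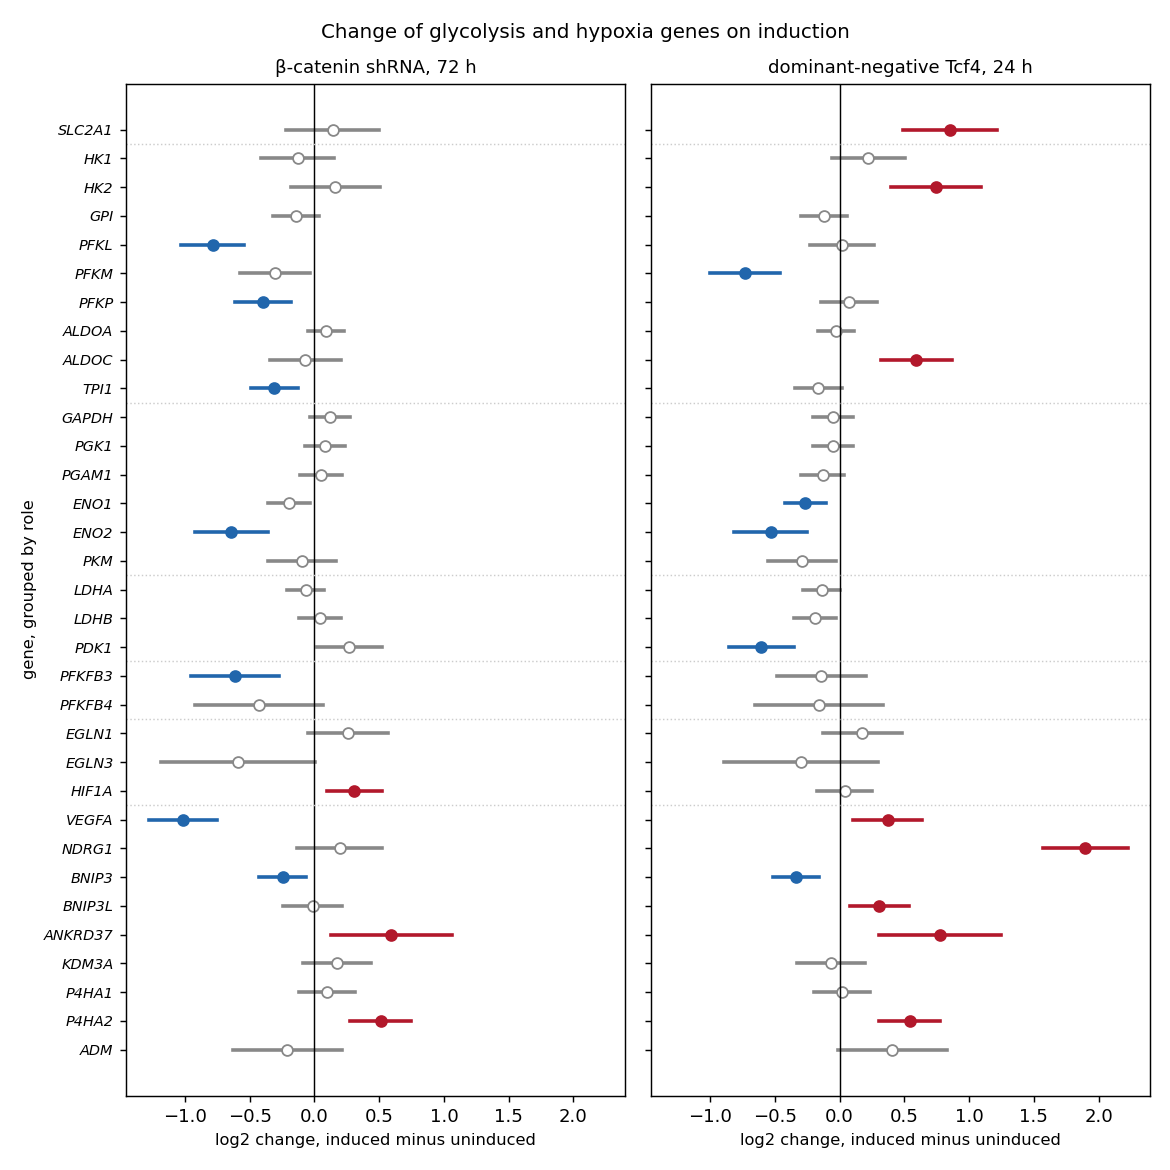
Log2 change (induced minus uninduced, with 95% interval) of the 33 tested members, grouped by role, for the β-catenin shRNA at 72 h (left) and dominant-negative Tcf4 at 24 h (right); filled points passed the test, red higher and blue lower. VEGFA lies at -1.02 on the left and at 0.37 on the right, and NDRG1 at 1.90 on the right.

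SLC2A1, the widely expressed glucose transporter known as GLUT1, passed the test with dominant-negative Tcf4. Signals were 190.2, 231.8 and 220.2 in induced dominant-negative Tcf4 cells and 137.3, 113.5 and 105.4 in uninduced cells of that line. The groups did not overlap, and SLC2A1 rose 1.81-fold (0.85 ± 0.17, adjusted p = 0.000877). In the shRNA line the signals were 104.3, 111.1 and 140.6 in induced cells and 106.1, 132.6 and 86.6 in uninduced cells, which overlapped (0.14 ± 0.17, adjusted p = 0.582, -0.01 without uninduced replicate 3). The difference of both changes, -0.71 (95% interval -1.23 to -0.20), did not pass (adjusted p = 0.0512). 

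Hexokinase traps glucose by phosphorylation, and HK2 is the form known for its abundance in tumours. HK2 had 890.8, 982.4 and 914.3 in induced dominant-negative Tcf4 cells and 569.3, 472.0 and 629.5 in uninduced ones. All 3 induced arrays were above all 3 uninduced, a 1.68-fold rise (0.75 ± 0.16, adjusted p = 0.00183). Only the brightest of its 3 probe sets showed this. The others were much dimmer, with geometric mean signals of 15.9 to 37.2 in the 4 groups. With the mean over all 3 the call was lost (0.20). With the shRNA HK2 had 443.4, 736.1 and 483.5 in induced and 456.4, 429.6 and 574.5 in uninduced cells, where induced replicate 2 lay apart from the other induced arrays and the groups overlapped (0.16 ± 0.16, adjusted p = 0.494). HK1, the form of most tissues, had changes of -0.13 in shRNA and 0.22 in dominant-negative Tcf4 cells, and GPI, which turns glucose phosphate into fructose phosphate, had -0.14 and -0.12. None of these 4 passed.

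Phosphofructokinase commits sugar to glycolysis, and its 3 subunit genes are listed here in turn. PFKL, the liver-type subunit, had 515.5, 763.3 and 628.4 in induced shRNA cells and 1123.2, 1074.9 and 1052.9 in uninduced shRNA cells. Every induced array lay below every uninduced one, and PFKL fell 1.73-fold (-0.79 ± 0.12, adjusted p = 5.97e-05). The other probe set of PFKL changed by -0.75. In dominant-negative Tcf4 cells it had 673.1, 788.0 and 719.2 after induction and 695.0, 751.5 and 702.7 without it, with overlap and a 95% interval from -0.23 to 0.27. The difference between both changes passed (-0.81 ± 0.16, adjusted p = 0.00283).

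PFKP, the platelet-type subunit, followed a similar course. It had 559.6, 722.7 and 729.1 in induced and 897.5, 887.1 and 847.7 in uninduced shRNA cells, without overlap, and fell by 0.40 ± 0.10 (adjusted p = 0.00598). After dominant-negative Tcf4 it had 628.4, 699.9 and 696.5 in induced and 624.0, 671.7 and 632.7 in uninduced cells (0.07, adjusted p = 0.655). Its difference of changes (-0.47 ± 0.14, adjusted p = 0.0338) is less firm than that of PFKL. The call was lost without shRNA induced replicate 1 (-0.34), shRNA uninduced replicate 1 (-0.45) or 2 (-0.46), dominant-negative Tcf4 induced replicate 2 or 3 (-0.44 each), or its uninduced replicate 1 (-0.45) or 3 (-0.46). PFKM, the muscle-type subunit, had 535.0, 639.2 and 414.4 in induced and 850.5, 933.4 and 815.1 in uninduced dominant-negative Tcf4 cells. These do not overlap, and PFKM fell 1.66-fold (-0.73 ± 0.13, adjusted p = 0.000299). With the shRNA it had 843.0, 1032.9 and 956.2 in induced and 1114.6, 1238.2 and 1134.9 in uninduced cells, which also do not overlap, yet the change of -0.30 ± 0.13 did not pass (adjusted p = 0.0807). The difference of its changes did not pass (0.43, adjusted p = 0.123).

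PFKFB3 makes the sugar bisphosphate that stimulates phosphofructokinase. It had 77.7, 91.7 and 79.7 in induced shRNA cells against 131.8, 115.7 and 133.6 in uninduced ones. The groups are apart, and PFKFB3 fell 1.53-fold (-0.61 ± 0.16, adjusted p = 0.00689). In dominant-negative Tcf4 cells 166.2, 146.5 and 119.5 after induction overlapped with 126.8, 179.4 and 171.0 without it (-0.14, adjusted p = 0.553). PFKFB4, a testis-type form of the same enzyme, did not pass in either line (-0.43 and -0.16).

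Aldolases split fructose bisphosphate. ALDOC, the brain-type aldolase, had 343.4, 362.3 and 359.8 in induced and 207.8, 280.1 and 223.9 in uninduced dominant-negative Tcf4 cells, without overlap, and rose 1.51-fold (0.59 ± 0.13, adjusted p = 0.0018). In shRNA cells it had 786.7, 803.4 and 746.8 after induction, inside the wider spread of 967.2, 842.4 and 672.1 without it. The difference of changes was -0.66 ± 0.18 (adjusted p = 0.0187), and it was lost without shRNA uninduced replicate 1 (-0.54) or dominant-negative Tcf4 uninduced replicate 1 (-0.58). ALDOA, the main glycolytic aldolase, changed by no more than 0.09 in size in either line, and neither change passed. TPI1, which interconverts the triose products, had 5817.1, 5308.8 and 6290.0 in induced and 8152.3, 7049.8 and 6444.4 in uninduced shRNA cells. It fell by 0.31 ± 0.09 (adjusted p = 0.01), a call lost without uninduced replicate 1 (-0.22) and, with _x_at and _s_at probe sets left out, on a dimmer probe set (-0.36). Its change with dominant-negative Tcf4 was -0.16 and did not pass (adjusted p = 0.16), although the groups did not overlap. That dimmer probe set fell by 0.67 there (adjusted p = 0.0126 in the fit over every probe set).

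Of the 6 enzyme genes after the triose phosphates 1 was called in the shRNA line and 2 were in the dominant-negative Tcf4 line, where 34.0% and 36.0% of all genes were. GAPDH, PGK1 and PGAM1 passed in neither line, with changes between 0.05 and 0.12 for the shRNA and between -0.13 and -0.05 for dominant-negative Tcf4. PKM, the pyruvate kinase of tumours, had -0.09 and -0.29 (adjusted p = 0.612 and 0.0823). ENO2, the neuronal enolase and a known HIF target, fell in both lines. It had 180.5, 230.9 and 207.5 in induced and 337.4, 287.0 and 339.2 in uninduced shRNA cells, a 1.56-fold decrease (-0.64 ± 0.13, adjusted p = 0.00131). With dominant-negative Tcf4 it had 280.9, 375.5 and 341.0 in induced and 499.9, 522.2 and 417.3 in uninduced cells, a 1.45-fold decrease (-0.53 ± 0.13, adjusted p = 0.00513). The groups are apart in both lines, and the difference of the decreases did not pass (-0.11, 95% interval -0.51 to 0.29). ENO1, the ubiquitous enolase, had 5557.6, 6507.4 and 5697.9 in induced and 7221.8, 6807.1 and 7249.6 in uninduced dominant-negative Tcf4 cells and fell by 0.26 ± 0.08 (adjusted p = 0.0116). That call was lost without induced replicate 1 (-0.22), and a mean over its probe sets gave 0.11, the opposite sign. A second bright ENO1 probe set had -0.16 there and a much dimmer one 0.74, neither called in the fit over every probe set. With the shRNA ENO1 had -0.20 (adjusted p = 0.0535), while a much dimmer probe set of the gene rose by 1.05 (adjusted p = 0.0362 in the fit over every probe set).

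Lactate dehydrogenase and PDK1 bear on whether pyruvate becomes lactate or is oxidised in the mitochondria. LDHA, the subunit that favours lactate, had 7360.8, 6818.1 and 7719.5 in induced and 7762.0, 7593.2 and 7558.1 in uninduced shRNA cells. In dominant-negative Tcf4 cells LDHA had 5838.9, 6861.5 and 6342.6 after induction and 7220.8, 6904.1 and 6787.9 without it. Both pairs overlapped, and the 95% intervals of the change, -0.21 to 0.08 with the shRNA and -0.28 to 0.01 with dominant-negative Tcf4, both span 0. Neither passed (adjusted p = 0.497 and 0.131), although leaving out dominant-negative Tcf4 induced replicate 2 gave a call there (-0.20) and quantile normalization gave one with the shRNA (-0.13). LDHB, the subunit of oxidative tissues, did not pass either with its brightest probe set (0.04 and -0.19), whereas its other probe set fell by 0.35 with dominant-negative Tcf4 (adjusted p = 0.00753 in the fit over every probe set).

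PDK1, the kinase that shuts pyruvate dehydrogenase, had 231.3, 182.9 and 191.2 in induced and 291.4, 308.9 and 316.1 in uninduced dominant-negative Tcf4 cells. It fell 1.52-fold there without overlap (-0.60 ± 0.12, adjusted p = 0.000733). In the shRNA line the values lay the other way, 335.5, 289.8 and 308.5 in induced and 253.9, 235.1 and 287.2 in uninduced cells. They do not overlap, but the change of 0.27 ± 0.12 did not pass (adjusted p = 0.0926), except without uninduced replicate 3 (0.35) or with array quality weights (0.33). The difference between the lines passed (0.87 ± 0.17, adjusted p = 0.00177), the one called member in which the shRNA change was the higher. A dimmer probe set of PDK1 had 0.19 and -0.08, neither called, and the mean over probe sets gave -0.34 with dominant-negative Tcf4 and 0.57 for the difference, both still called.

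**Figure D2:**
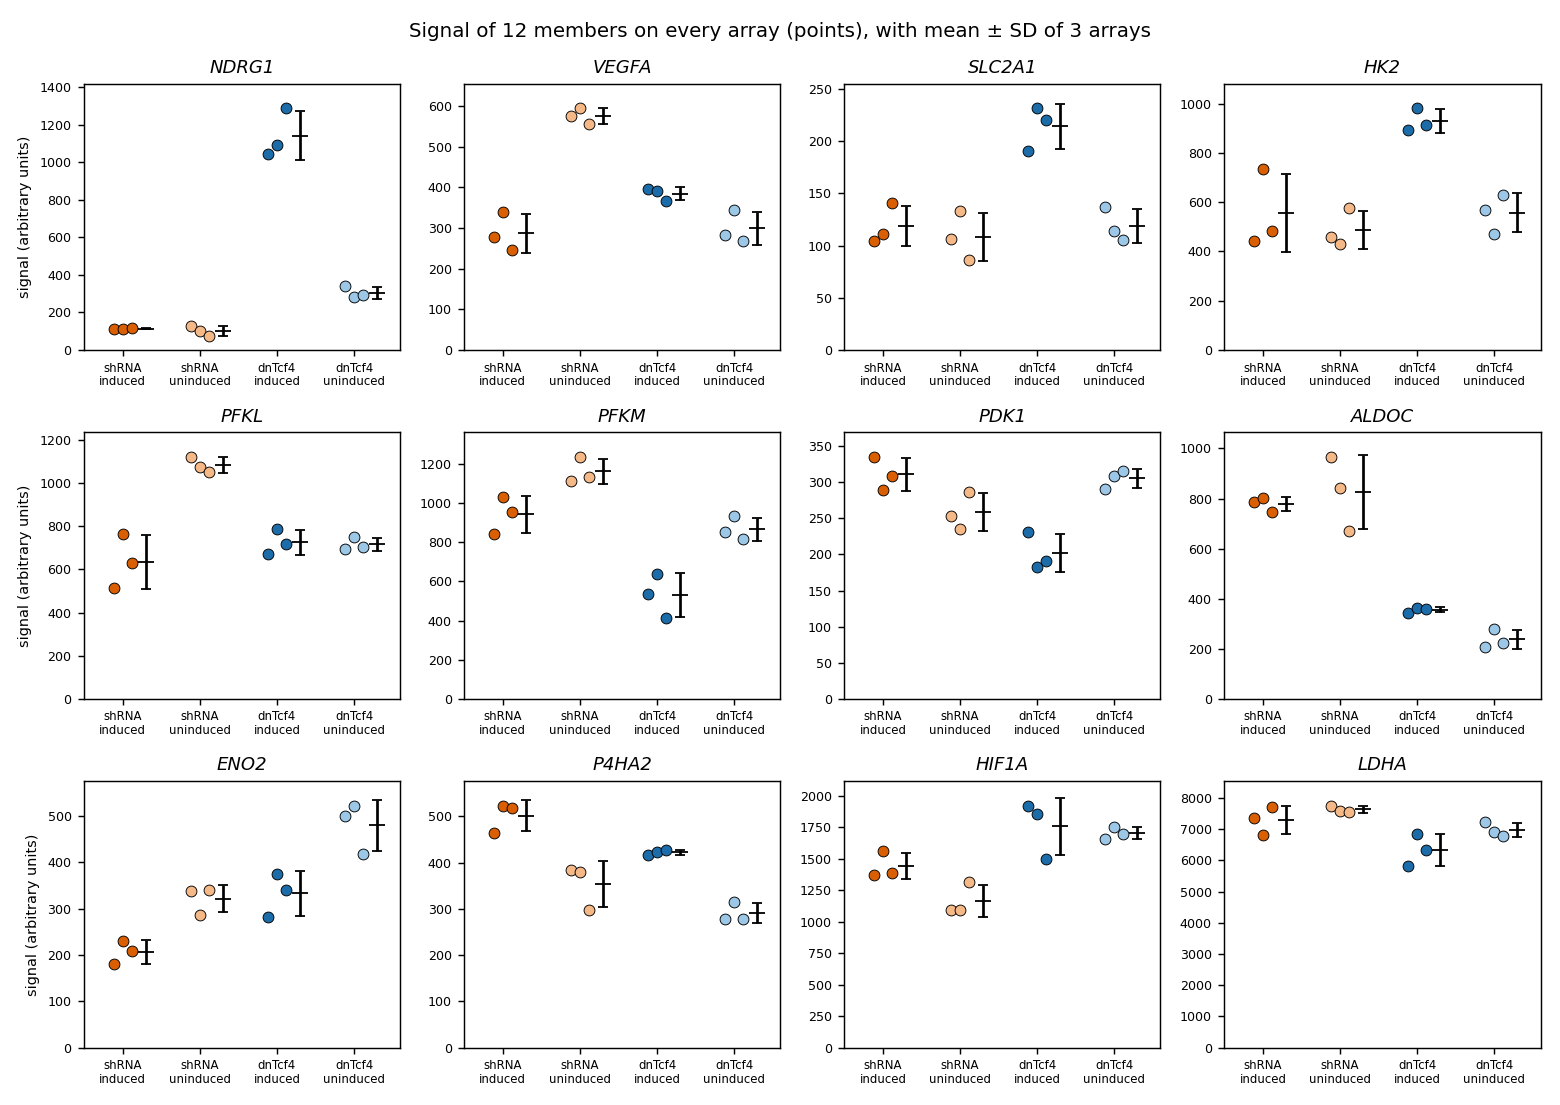
Signal (arbitrary units, linear axis from 0) of 12 members on each array, with mean ± SD of 3 arrays, in induced and uninduced cells of the β-catenin shRNA line (orange) and of the dominant-negative Tcf4 (dnTcf4) line (blue). Induced dominant-negative Tcf4 cells stand highest for NDRG1, at 1046.1 to 1289.6, and uninduced shRNA cells for VEGFA, at 557.0 to 595.9.

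HIF1A itself, the oxygen-regulated subunit, had 1372.2, 1564.2 and 1391.6 in induced and 1095.8, 1091.8 and 1315.9 in uninduced shRNA cells. It rose 1.24-fold without overlap (0.31 ± 0.10, adjusted p = 0.0266). This call was lost without induced replicate 2 (0.25) or uninduced replicate 1 or 2 (0.26 each), and with arrays centred on their median. With dominant-negative Tcf4 HIF1A had 1924.4, 1854.2 and 1502.5 in induced and 1656.5, 1753.8 and 1700.8 in uninduced cells, a change of 0.04 ± 0.10 with overlap (adjusted p = 0.807). HIF1A is regulated mainly through the stability of its protein, which arrays do not read. EGLN1 and EGLN3, prolyl hydroxylases that mark HIF1A, did not pass in either line. EGLN1 had changes of 0.26 (shRNA) and 0.18 (dominant-negative Tcf4), and EGLN3, a dim gene, had -0.59 and -0.30.

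Among the further targets VEGFA, which drives vessel growth, was the member with the largest decrease on the shRNA. It had 277.2, 339.9 and 245.7 in induced and 576.8, 595.9 and 557.0 in uninduced shRNA cells. All induced arrays lay far below the uninduced ones, and VEGFA fell 2.02-fold (-1.02 ± 0.12, adjusted p = 8.56e-06). Its 3 other probe sets had -0.95, -0.71 and -1.26, all called in a fit over every probe set. With dominant-negative Tcf4 VEGFA had 395.0, 392.0 and 365.9 in induced and 284.0, 345.7 and 267.2 in uninduced cells. It rose 1.29-fold here without overlap (0.37 ± 0.12, adjusted p = 0.0279). In the fit over every probe set this probe set did not pass (adjusted p = 0.0611). The 3 other probe sets had 0.20, 0.09 and 0.11 there, none called. The rise was lost without induced replicate 1 (0.35) or 2 (0.36) or uninduced replicate 1 (0.34) or 3 (0.29). The mean over probe sets (0.19), arrays centred on their median (0.36) and a fit with no variance trend also removed the call. In the fit over genes, VEGFA was the only member whose brightest probe set was called in opposite directions. The difference of its changes was -1.39 ± 0.18 (adjusted p = 5.35e-05).

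NDRG1, a stress gene linked to epithelial differentiation and among the most responsive hypoxia genes, had the largest change of any member. It had 1046.1, 1089.1 and 1289.6 in induced dominant-negative Tcf4 cells and 342.3, 281.7 and 293.6 in uninduced ones, a 3.73-fold rise (1.90 ± 0.15, adjusted p = 1.18e-07). The shRNA line had 111.2, 113.0 and 118.5 after induction and 126.4, 102.9 and 76.3 without it, which overlap (0.20, adjusted p = 0.367). The difference of the changes was -1.70 ± 0.22 (adjusted p = 5.73e-05). The mitophagy receptors BNIP3 and BNIP3L, both known HIF targets, did not move alike. BNIP3 had 735.1, 826.8 and 758.9 in induced and 873.1, 1007.4 and 873.4 in uninduced shRNA cells and fell by 0.25 ± 0.09 (adjusted p = 0.0353). Its call there was lost without induced replicate 1 (-0.21) or 3 (-0.23) or uninduced replicate 2 (-0.18). In dominant-negative Tcf4 cells it had 604.3, 622.4 and 621.5 in induced and 784.7, 793.6 and 755.1 in uninduced cells and fell by 0.34 ± 0.09 (adjusted p = 0.00546). BNIP3L had 637.1, 594.7 and 687.4 in induced and 510.0, 551.3 and 489.2 in uninduced dominant-negative Tcf4 cells and rose by 0.31 ± 0.11 (adjusted p = 0.035). That was lost without induced replicate 1 (0.31) or 3 (0.25) or uninduced replicate 1 (0.30) or 3 (0.27). With the shRNA the brighter BNIP3L probe set had -0.01 (adjusted p = 0.937) but the other -0.40, called in the fit over every probe set, so the 2 disagree. That dimmer probe set was also called with dominant-negative Tcf4 (0.34), in the opposite direction.

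ANKRD37, a small ankyrin repeat protein known as a HIF target, had 97.7, 103.3 and 103.4 in induced and 62.2, 59.0 and 56.6 in uninduced dominant-negative Tcf4 cells. It rose 1.71-fold without overlap (0.78 ± 0.22, adjusted p = 0.0114). With the shRNA it had 53.5, 49.9 and 40.9 in induced and 40.0, 37.1 and 21.4 in uninduced cells, and the rise of 0.59 ± 0.22 barely passed (adjusted p = 0.0484). Leaving out uninduced replicate 3, the lowest array, gave 0.31, and leaving out induced replicate 1 or 2 gave 0.51 and 0.56, all without a call. It was also lost at an unchanged 0.59 without any single array of the dominant-negative Tcf4 line, and under a total of 18 of 25 alternatives. P4HA2, a subunit of the hydroxylase that matures collagen, was firmer. It had 463.2, 523.2 and 517.7 in induced and 384.7, 378.5 and 297.4 in uninduced shRNA cells (0.51 ± 0.11, adjusted p = 0.00176), and 416.7, 422.5 and 427.4 in induced and 278.2, 315.6 and 278.5 in uninduced dominant-negative Tcf4 cells (0.54 ± 0.11, adjusted p = 0.00111). Both pairs are apart, although the mean over its probe sets passed in neither line (0.42 and 0.34). P4HA1, its sister subunit, KDM3A, a histone demethylase, and ADM, the peptide adrenomedullin, passed in neither line. Their changes were 0.10, 0.18 and -0.21 with the shRNA and 0.02, -0.07 and 0.41 with dominant-negative Tcf4.

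The difference of the changes, shRNA minus dominant-negative Tcf4, thus passed for 6 of 33 members, where 17.6% of all genes passed. It was positive for PDK1 and negative for PFKL, PFKP, ALDOC, VEGFA and NDRG1 (9.03% and 8.61% of all genes). Its median was -0.03 over the members and 0.04 over all genes. Without shRNA induced replicate 2 the positive ones were 3, without dominant-negative Tcf4 induced replicate 2 they were 2, and without shRNA uninduced replicate 1 the negative ones were 3. For ANKRD37, P4HA2, ENO2 and BNIP3, called alike in both lines, the difference lay between -0.18 and 0.09 and did not pass.

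Before any induction the lines already differed in these genes. The uninduced dominant-negative Tcf4 line was higher than the uninduced shRNA line for 7 members (ENO1, ENO2, PKM, NDRG1, ANKRD37, P4HA1 and HIF1A) and lower for 10 (PFKL, PFKM, PFKP, PFKFB4, ALDOC, GAPDH, PGAM1, LDHB, VEGFA and BNIP3), and 16 did not pass. Of all genes 37.3% passed, 16.9% higher and 20.5% lower. With arrays centred on their median 8 members were higher and 5 lower, and 59.3% of the calls over all genes were higher, beside 45.2% without centring. The signals of both lines did not overlap for 21 members (9 higher, 12 lower in the dominant-negative Tcf4 line), against 49.9% of all genes (22.9% and 27.0%). The median difference was -0.07 over the members and -0.03 over all genes. The largest was that of ALDOC, whose signals are given above, 3.48-fold lower in the dominant-negative Tcf4 line (-1.80 ± 0.13, adjusted p = 1.98e-08). NDRG1 was 3.06-fold higher (1.61 ± 0.15, adjusted p = 5.13e-07), and VEGFA was 1.94-fold lower (-0.96 ± 0.12, adjusted p = 1.48e-05). Uninduced dominant-negative Tcf4 cells overlapped in VEGFA with induced shRNA cells, with 267.2 to 345.7 in uninduced dominant-negative Tcf4 cells beside 245.7 to 339.9 in induced shRNA cells. ANKRD37 was 1.87-fold higher (0.90 ± 0.22, adjusted p = 0.00413). PGK1 did not pass with its brightest probe set (0.03). A dimmer PGK1 probe set was higher by 0.76 (adjusted p = 3.93e-05 in the fit over every probe set), and the remaining ones were not called there.

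PFKFB4 had 82.6, 88.0 and 55.6 in uninduced dominant-negative Tcf4 cells and 187.0, 129.3 and 106.4 in uninduced shRNA cells, without overlap (-0.89 ± 0.23, adjusted p = 0.00661). PKM had 5062.2, 4780.3 and 4779.6 in uninduced dominant-negative Tcf4 cells and 2814.8, 2807.0 and 2778.4 in uninduced shRNA cells, a 1.74-fold higher level (0.80 ± 0.12, adjusted p = 9.23e-05). The remaining differences were smaller, from -0.60 for PFKL to 0.66 for P4HA1. PFKL and PFKP were lower in the dominant-negative Tcf4 line by 0.60 and 0.45, and HIF1A was higher (0.55 ± 0.10, adjusted p = 0.00043). The calls of small differences were lost without single arrays, in some cases at a nearly unchanged value. GAPDH (-0.22) was lost without shRNA uninduced replicate 1 (-0.20) or 2 (-0.22) or dominant-negative Tcf4 uninduced replicate 2 (-0.19), and LDHB (-0.25) without shRNA replicate 1 (-0.21) or dominant-negative Tcf4 replicate 2 (-0.23). BNIP3 (-0.24) was lost without shRNA replicate 2 (-0.17) or dominant-negative Tcf4 replicate 1 (-0.24), 2 (-0.25) or 3 (-0.21). ENO1 (0.22, but 0.48 with quantile normalization) was lost without shRNA replicate 3 (0.16) or dominant-negative Tcf4 replicate 1 or 3 (0.21 each), and PFKM (-0.43) without shRNA replicate 2 or dominant-negative Tcf4 replicate 3 (-0.38 each).

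**Figure D3:**
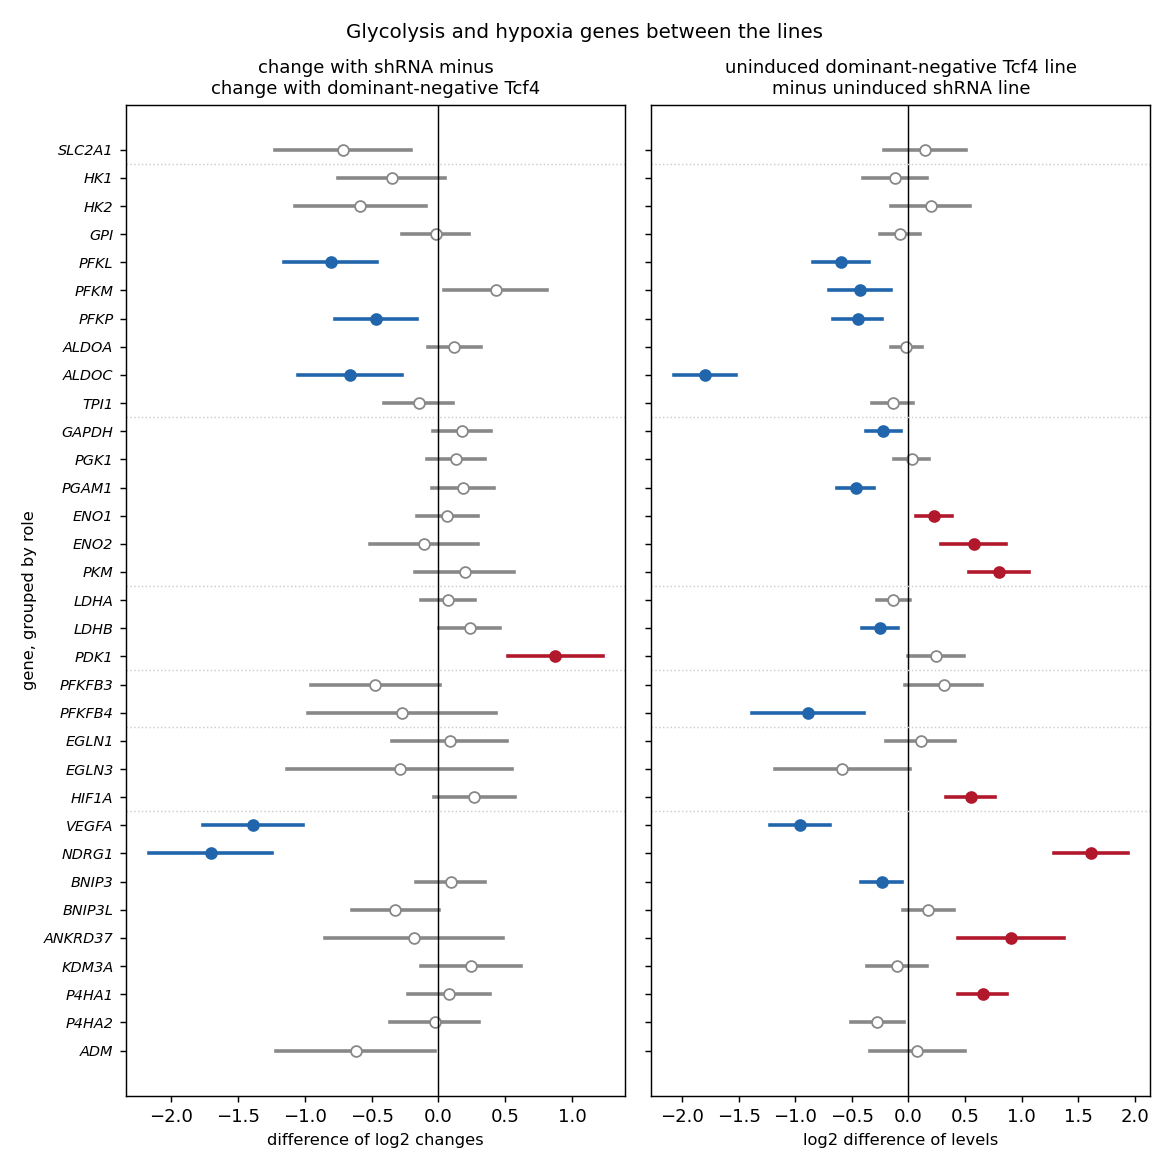
Difference of log2 changes, shRNA minus dominant-negative Tcf4 (left), and log2 difference of levels, uninduced dominant-negative Tcf4 line minus uninduced shRNA line (right), with 95% intervals, for the 33 tested members grouped by role; filled points passed the test. NDRG1 lies at -1.70 on the left and 1.61 on the right, and ALDOC at -1.80 on the right.

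Genes around the pathway were read from further lists. Of 20 oxygen sensing and HIF regulation genes 18 were tested, of which 2 rose and 1 fell with the shRNA, and 3 rose and 1 fell with dominant-negative Tcf4 (medians -0.04 and 0.04, beside 0.02 and -0.05 over all genes). Both counts stand beside 34.0% and 36.0% of all genes called. EPAS1, which encodes the other main oxygen-regulated subunit, HIF-2α, rose with both constructs, by 1.89 ± 0.21 with the shRNA (adjusted p = 3.45e-06) and by 3.59 ± 0.21 with dominant-negative Tcf4 (adjusted p = 3.52e-09). The mean over its probe sets gave 1.24 and 2.32, both called. Its geometric mean signal was 409 in induced and 111 in uninduced shRNA cells, and 208 in induced and 17.3 in uninduced dominant-negative Tcf4 cells. CITED2, a competitor of HIF for its coactivator, rose by 1.04 and 1.51. HIF1AN, the hydroxylase that blocks the HIF transactivation domain, fell by 1.14 ± 0.11 with the shRNA (adjusted p = 1.05e-06), or by 0.39 with the mean over its probe sets, and had -0.17 with dominant-negative Tcf4 (adjusted p = 0.266). OS9, a lectin of the endoplasmic reticulum, rose by 0.51 with dominant-negative Tcf4.

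Of 50 further HIF target genes 37 were tested, and 10 rose and 6 fell with the shRNA and 9 rose and 5 fell with dominant-negative Tcf4, both with a median of 0.16 (0.02 and -0.05 over all genes). Calls over all genes were 34.0% with the shRNA (16.6% higher) and 36.0% with dominant-negative Tcf4 (16.0% higher). BHLHE41, a transcriptional repressor, rose by 2.86 ± 0.38 and 1.53 ± 0.38, the second of which was lost with the mean over probe sets (0.85), and CCNG2, a cyclin of arrested cells, rose by 1.12 with the shRNA. ANXA1, an annexin, rose by 1.60 with the shRNA and had -0.29 with dominant-negative Tcf4. DDIT4, an inhibitor of mTOR signalling, showed the reverse, -0.06 with the shRNA and a rise of 2.14 ± 0.14 with dominant-negative Tcf4 (adjusted p = 7.81e-09). TGFA, a ligand of the EGF receptor, rose by 1.85 with dominant-negative Tcf4.

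Of 22 pyruvate and lactate genes 16 were tested, with 2 higher and 3 lower for the shRNA and 6 higher and 1 lower for dominant-negative Tcf4 (medians 0.02 and 0.06), beside calls for 34.0% and 36.0% of all genes. LDHD, which oxidises D-lactate, rose by 1.50 ± 0.25 and 2.66 ± 0.25. Its geometric mean signal was 113 in induced and 40.0 in uninduced shRNA cells and 136 in induced and 21.6 in uninduced dominant-negative Tcf4 cells. ME1, the cytosolic malic enzyme, rose by 0.72 with the shRNA (1.15 with _x_at and _s_at probe sets left out) and PDPR, a phosphatase subunit that activates pyruvate dehydrogenase, fell by 0.59. PC, pyruvate carboxylase, and MPC1, of the mitochondrial pyruvate carrier, rose by 1.10 and 0.57 with dominant-negative Tcf4. Hexose transport counted 3 higher and 1 lower of 10 tested with the shRNA and 2 higher and 1 lower with dominant-negative Tcf4 (medians 0.30 and -0.11), beside the same 34.0% and 36.0% of all genes. SLC5A1, the sodium-driven glucose carrier of the gut, fell by 1.31 and by 1.71. ARRDC4 rose by 1.43 with the shRNA, and TXNIP, a related arrestin that pulls SLC2A1 off the membrane, rose by 0.75 with dominant-negative Tcf4, where SLC2A6, a lysosomal hexose carrier, rose by 1.03. SLC2A12, another hexose carrier, rose by 1.55 ± 0.58 with the shRNA (adjusted p = 0.0476), a dim gene whose call 17 alternatives removed. The shRNA count of 4 was 2 without induced replicate 2 or 3 or uninduced replicate 1 or 3.

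Further glycolytic genes gave 2 higher and 1 lower of 12 tested in each induction (medians 0.09 and 0.25), where 34.0% and 36.0% of all genes were called. BPGM, which makes the bisphosphoglycerate of red cells, fell by 0.48 with the shRNA and rose by 0.36 with dominant-negative Tcf4, and PGP, a phosphatase, rose by 0.29 with the shRNA and fell by 0.42 with dominant-negative Tcf4. The BPGM rise was lost without dominant-negative Tcf4 induced replicate 1 (0.32) or 2 (0.37) or any uninduced array of that line (0.33 to 0.39). The PGP rise was lost without shRNA induced replicate 2 (0.26) or 3 (0.27), shRNA uninduced replicate 2 (0.31) or 3 (0.17), or any uninduced dominant-negative Tcf4 array (0.29). PGM1, which links glycogen to glycolysis, rose by 0.48 with the shRNA, a call lost without any induced shRNA array (0.45 to 0.50) or uninduced replicate 2 (0.49) or 3 (0.42), and GPD1L, a glycerol phosphate dehydrogenase, rose by 0.52 with dominant-negative Tcf4. The shRNA count of 3 was 1 without uninduced replicate 2 or 3. Chosen after its values were seen, PGM1 is also the widest difference between the uninduced lines among the listed genes. Its geometric mean was 20.1 in uninduced dominant-negative Tcf4 cells and 813 in uninduced shRNA cells (-5.34 ± 0.16, adjusted p = 4.72e-13).

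The pentose phosphate pathway gave 2 higher and 2 lower of 8 tested with the shRNA and 0 higher and 2 lower with dominant-negative Tcf4 (medians -0.01 and -0.15), where 34.0% and 36.0% of all genes were called. SHPK, sedoheptulokinase, fell by 0.96 and PGLS, the lactonase, rose by 0.69 with the shRNA. RPIA, the ribose phosphate isomerase, fell by 0.26 with the shRNA and by 0.56 with dominant-negative Tcf4, and PGD, the decarboxylating dehydrogenase, fell by 0.27 with dominant-negative Tcf4. RPIA with the shRNA was lost under 16 of 26 alternatives, with values between -0.31 and -0.19, among them the lack of shRNA induced replicate 1 or 2, shRNA uninduced replicate 1 or 2, dominant-negative Tcf4 induced replicate 1 or any uninduced dominant-negative Tcf4 array. PGD was lost without induced replicate 1 (-0.17) or 3 (-0.29) or any uninduced dominant-negative Tcf4 array (-0.28 to -0.26). The shRNA count of 4 was 2 without induced replicate 2, and the dominant-negative Tcf4 count of 2 was 1 without induced replicate 1 or 3 or any uninduced array. Gluconeogenesis and glycogen gave 1 higher and 4 lower of 12 with the shRNA and 3 higher and 1 lower with dominant-negative Tcf4 (medians -0.16 and -0.06), beside the same shares of all genes. SLC37A4, the glucose phosphate carrier of the endoplasmic reticulum, GYG1, the primer of glycogen, and GBE1, the branching enzyme, fell by 1.60, by 1.31 and by 0.48 with the shRNA. PCK1, the key enzyme of gluconeogenesis, UGP2, which makes the sugar donor for glycogen, and PYGB, a glycogen phosphorylase, rose by 1.40, 0.61 and 0.40 with dominant-negative Tcf4. The lists share PFKFB2, PGM1, GYS1 and GBE1, and a call of these counts in each list that holds it.

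**Figure D4:**
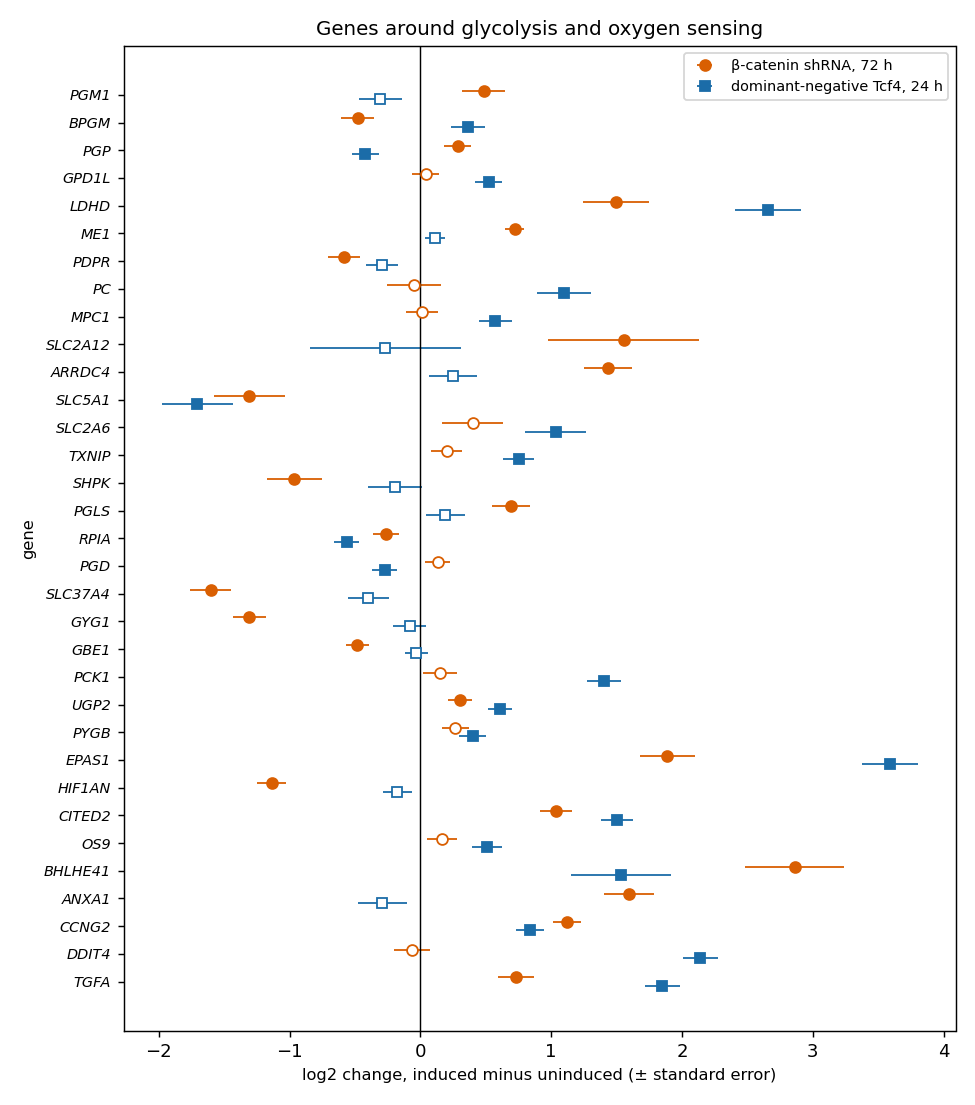
Log2 change (induced minus uninduced ± SE) of the genes named from the further lists, for the β-catenin shRNA at 72 h (orange circles) and dominant-negative Tcf4 at 24 h (blue squares); filled symbols passed the test. EPAS1 lies at 1.89 and 3.59, and DDIT4 at -0.06 and 2.14.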

How the data were processed

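RNA of the 12 arrays was labelled from total RNA extracted with Trizol and RNeasy, per the labels' protocols. The deposited table holds 1 intensity per probe set and array on a linear scale in arbitrary units, made by the authors with MAS5 and GCOS, per the submitters' processing notes, with versions not given in the sources used here. Each array was scaled by the authors to an equal mean over its middle 96% of values. The table has no detection calls, 6.58% to 9.25% of its values per array lie under 1, and no column was left unused. The array annotation gave 41097 of 54675 probe sets 1 symbol, 1801 several and 11777 none.

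A floor of 1 was set on signals before log2. Genes were tested if the mean log2 signal of their brightest probe set with 1 symbol was at or above the median of all probe sets (3.35, a signal of 10.2). A model with 4 group means and 8 residual degrees of freedom was fitted in R 4.3.3 by limma 3.58.1, with a variance trend, and gave 4 contrasts, each induction, their difference, and the uninduced lines. Adjusted p-values follow Benjamini and Hochberg over the 12386 genes, from two-sided tests. Dimmer probe sets were read from the same model over every probe set. The steps were tested on simulated data.

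Values on every array are given for called members among the 8 largest changes of an induction, for up to 8 members called in the difference, up to 6 between the uninduced lines, and always for HIF1A, SLC2A1, PDK1, LDHA and VEGFA, and further called members were given likewise. From each further list up to 3 called genes per induction are named. The members and lists were chosen with earlier results of these data known. Some genes of the further lists are not reported here.

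Alternatives were quantile normalization, centring arrays on their median, an offset of 3.5 in place of the floor, no filter, a stricter filter (6.29, a signal of 78.2), every probe set by itself, the mean of probe sets, leaving out _x_at and _s_at probe sets, control probe sets allowed, array quality weights, no variance trend, a fit of the compared arrays alone, a replicate block, a 2-fold minimum, and each array left out in turn. Promoter sequences are from RefSeq (GRCh38.p14), and 31 members had an entry.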

Additional observations from a re-analysis of the deposited data

Results flagged for a closer look

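The change in the shRNA line and the change in the dominant-negative Tcf4 line differed for 6 members and for 19 of the genes named from the further lists, tested in limma as the difference of the changes over all genes (adjusted p under 0.05). Of all genes 17.6% passed. The named genes were picked for large called changes in an induction of these same data, which favours a difference. Their count thus says nothing about the lists. Values are the shRNA change minus the dominant-negative Tcf4 change on the log2 scale.

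Among the members the difference was 0.87 for PDK1, -0.81 for PFKL, -0.47 for PFKP, -0.66 for ALDOC, -1.39 for VEGFA and -1.70 for NDRG1. VEGFA was called lower with the shRNA and higher with dominant-negative Tcf4, though several alternatives removed the second call. The others were called in 1 line. Among regulators of HIF and its further targets it was -1.70 for EPAS1, -0.96 for HIF1AN, -2.20 for DDIT4, -1.12 for TGFA and 1.89 for ANXA1. EPAS1 and TGFA rose in both lines, more with dominant-negative Tcf4.

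Genes of hexose handling, pyruvate and further glycolysis had differences of 1.18 for ARRDC4, -0.55 for TXNIP, -1.16 for LDHD, 0.61 for ME1, -1.15 for PC, -0.56 for MPC1, -0.84 for BPGM, 0.71 for PGP, 0.79 for PGM1 and -0.48 for GPD1L. BPGM and PGP were called in opposite directions in the 2 lines. In gluconeogenesis and glycogen the difference was -1.25 for PCK1, -1.21 for SLC37A4, -1.23 for GYG1 and -0.45 for GBE1. The lines differ in construct, in time of induction and in their uninduced levels, which cannot be told apart here.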

How the results depend on the processing

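Of 87 called results of single genes 26 kept direction and call under every alternative run for them and 3 changed sign under 1. The 2-fold minimum, among these alternatives, removes every call with a change under 1 in size by definition. For many results it was the only alternative that removed the call. Among these were PFKL and ENO2 with the shRNA and PFKM and PDK1 with dominant-negative Tcf4. With the mean of probe sets ENO1 with dominant-negative Tcf4 was 0.11. That mean takes in a second bright ENO1 probe set with -0.16 and a much dimmer one with 0.74. With quantile normalization GAPDH and LDHB between the uninduced lines were 0.0446 and 0.0018. Changes that had not passed also switched sign, SLC2A1 with the shRNA (-0.0115 without its uninduced replicate 3, up to 0.296 without another array) and HIF1A with dominant-negative Tcf4 (-0.0292 and -0.0024 without induced replicate 1 or 2, up to 0.149). The causes were not tested.

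Leaving out 1 array gave 2 to 4 members higher and 6 to 9 lower with the shRNA, 6 to 8 and 4 to 7 with dominant-negative Tcf4, 1 to 3 and 3 to 6 for the difference of the changes, and 6 to 7 and 7 to 11 between the uninduced lines. Called list genes (shRNA; dominant-negative Tcf4) numbered 1 to 3 and 2 to 4 for further glycolysis, 5 to 5 and 5 to 7 for pyruvate and lactate, 2 to 4 and 3 to 4 for hexose transport, 2 to 4 and 1 to 3 for pentose phosphate, 4 to 6 and 3 to 5 for gluconeogenesis and glycogen, 3 to 4 and 4 to 5 for oxygen sensing, and 13 to 17 and 12 to 15 for further HIF targets.

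Other settings moved counts by over 1.5 times. The share of all genes called (shRNA; dominant-negative Tcf4) was 34.0% and 36.0% as reported. It was 28.6% and 30.6% with centring, 17.5% and 18.5% with every probe set by itself, and 30.1% and 31.7% with probe set means. Without _x_at and _s_at probe sets it was 31.1% and 31.8%, without variance trend 31.4% and 32.8%, and without filter 19.6% and 20.7%. With the shRNA it was 37.0% with array weights, 46.4% under the stricter filter and 34.3% with quantile normalization. Centring arrays on their median gave 1 member higher with the shRNA (3 as reported), 3 lower with dominant-negative Tcf4 (5 as reported), 3 negative differences of changes (5 as reported) and 5 lower between the uninduced lines (10 as reported), and 1 further glycolysis and 2 hexose transport genes with the shRNA. Over all genes centring made 59.3% of calls between the uninduced lines higher, and 45.2% as reported. Centring called 12.1% of all genes in the difference and 33.1% between the lines, beside 17.6% and 37.3% as reported. Every probe set by itself gave 1 member higher with the shRNA, 1 glycolysis, 2 hexose and 2 pentose phosphate genes with the shRNA and 1 pentose phosphate gene with dominant-negative Tcf4. The mean of probe sets gave 5 members higher with dominant-negative Tcf4 (8 as reported). Without _x_at and _s_at probe sets 4 members were lower with the shRNA (7 as reported), 5 higher with dominant-negative Tcf4, 3 negative in the difference and 4 lower between the lines, with 2 and 1 gluconeogenesis genes and 2 hexose genes. Only 9547 genes were tested in this setting. PFKL, PFKFB3, VEGFA, NDRG1 and SLC2A1, among others, had no probe set left above the filter, so their calls were absent rather than failed. It called 15.8% of all genes in the difference and 34.8% between the lines. No variance trend gave 1 higher with the shRNA, 3 negative differences, 6 lower between the lines, and 2 and 1 pentose phosphate genes. There 14.1% of all genes were called in the difference and 34.4% between the lines. No filter gave 2 hexose genes with the shRNA and 2 and 1 pentose phosphate genes. Hexose genes with the shRNA were 2 with array weights and 0 under the stricter filter, and pentose phosphate genes 2 with quantile normalization.

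A 2-fold minimum left 0 members higher and 1 lower with the shRNA (VEGFA), 1 (NDRG1) and 0 with dominant-negative Tcf4, 0 and 2 in the difference, and 1 and 1 between the lines. Of all genes it left 8.62% with the shRNA, 7.56% with dominant-negative Tcf4, 6.04% in the difference and 10.4% between the lines. List genes were then 0 and 0 for glycolysis, 1 and 2 for pyruvate, 0 and 0 for pentose phosphate, 2 and 1 for gluconeogenesis, 2 for oxygen sensing with dominant-negative Tcf4, and 4 and 5 for further HIF targets.

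Same-numbered arrays deviated from their group means with correlations of -0.04, 0.02 and -0.08 in the shRNA line. In the dominant-negative Tcf4 line these were -0.02, 0.04 and -0.02. No large shared deviation is visible, but with 3 arrays a group this cannot exclude that the numbers pair the samples. With the replicate number as a block the members called were 3 higher and 8 lower in the shRNA line, 7 and 5 in the dominant-negative Tcf4 line, 1 and 4 in the difference and 6 and 9 between the lines, and hexose transport with the shRNA counted 2. Of all genes 31.9%, 33.8%, 14.8% and 34.7% were called with the block, in the same order.

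The values carry no detection calls, so whether a dim probe set read its gene at all is not known. SLC2A12, and in single groups BHLHE41, SLC5A1, EPAS1 and PGM1, had signals near the filter (10.2). With 3 arrays a group, small changes such as those of TPI1, ENO1, BNIP3 and HIF1A lie near the limit of what passes.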
